A study of Homo sapiens with 6 samples.

Results

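The genes described here were the 7 SMAD genes SMAD1 to SMAD7, the corepressor genes SKI and SKIL, and SMURF2, a ubiquitin ligase gene. They were chosen by name and found through their symbols in GENCODE, which gave 10 Ensembl identifiers among the 58302 genes of the count tables. Of the 15075 genes that passed a filter on low counts, 9 were members, and SMAD4 did not pass.

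RNA was sequenced from a line labelled MDA-MB231, a triple-negative breast cancer line, to ask which genes depend on Smyca, a nuclear long noncoding RNA. The 3 control libraries came from cells that stably carried a control shRNA in the lentiviral vector pLKO.1, and the 3 knockdown libraries from cells that stably carried shRNA #1 against Smyca in the same vector. A single Smyca shRNA was sequenced, so loss of Smyca and any other effect of that hairpin cannot be told apart here, and neither the labels nor the methods name a TGF-β treatment for these libraries. The labels number the repeats 1 to 3 without saying whether they were separate cultures, while the study calls them biological repeats. Total counts were 16501085, 15560192 and 14999307 in control repeats 1, 2 and 3, and 15714911, 16388020 and 15788258 in knockdown repeats 1, 2 and 3.

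Receptors for TGF-β and activin phosphorylate SMAD2 and SMAD3, and receptors for bone morphogenetic proteins (BMPs) phosphorylate SMAD1 and SMAD5. Either pair joins SMAD4 and enters the nucleus, while SMAD6 and SMAD7 hold the signal back at the receptors, SKI and SKIL repress genes that SMADs have bound, and SMURF2 marks SMADs, SKIL and receptors for degradation. In breast cancer cells the TGF-β branch is known both for slowing growth and for driving the epithelial-mesenchymal transition.

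Smyca itself, annotated as MIR23AHG, was measured at 25.0, 19.5 and 22.0 CPM (read counts scaled to the normalized library size) in control repeats 1, 2 and 3. In knockdown repeats 1, 2 and 3 its level was 10.5, 6.97 and 5.61 CPM. Every knockdown library was below every control library. The log2 fold change, given throughout as control over knockdown so that a positive value is a higher level in control, was 1.53 ± 0.26 (SE). Adjusted over all genes tested, its p in the quasi-likelihood test of edgeR was 0.111 with 6 libraries, above the 0.05 of a call. It was 0.0152 without control repeat 3, 0.000646 with no filter on low counts and 3.71e-05 by DESeq2, all calls, and 0.119 to 0.44 when any other library was left out, with log2 fold changes from 1.33 to 1.81 over the libraries left out. The target of shRNA #1 is gcatagataggtgggtgagtg, which has 1 match in GRCh38, at chr19:13836056-13836076 on the minus strand, in an exon of MIR23AHG.

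By their counts, control repeat 3 stood apart from the other control libraries. Its share of counts from mitochondrial genes was 4.99%, against 1.78% and 1.99% in control repeats 1 and 2 and 2.35% to 2.72% in the knockdown. Over 13499 genes with at least 10 counts in each library, log2 CPM of control repeats 1 and 2 correlated at r = 0.99, and control repeat 3 correlated with them at 0.951 and 0.961 and with the knockdown libraries at 0.969 to 0.97 (genes are not independent replicates). The knockdown was split in the same way though less widely, with repeats 1 and 2 at r = 0.99 and knockdown repeat 3 at 0.973 and 0.978 with them. The FPKM column deposited for control repeat 2 did not follow its own counts, with r = 0.961 to them and 0.996 to the counts of control repeat 3. Which of these columns belongs to control repeat 2 cannot be told from the files. By the FPKM column, control repeats 2 and 3 would be alike and control repeat 1 would stand apart, at r = 0.951 to both. Counts were used for the main comparison, the fold changes of the members are also given without control repeat 3, and a fit with control repeat 2 rebuilt from its FPKM values is given for some members and for the members as a group.

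The cell label was compared with marker genes. Of 10 mesenchymal and basal markers, 9 were expressed above the filter, with MSN at 341 to 767 CPM, S100A4 at 396 to 632 CPM and VIM at 71.2 to 305 CPM, while SPARC stayed under 20 counts in each library. Their summed level was 1955, 1600 and 1372 CPM in control and 1272, 1449 and 1616 CPM in knockdown, and at an unadjusted p under 0.05 5 of the 9 were higher and 0 lower in control, against 10.4% and 8.74% of all genes tested. Epithelial markers were summed at 7362 to 10679 CPM, led by KRT8 at 4249 to 7408 CPM, KRT19 at 850 to 1957 CPM and KRT18 at 987 to 1379 CPM, and GRHL2 stayed under 20 counts, with 1 of 10 genes higher and 1 lower in control at an unadjusted p under 0.05, near those shares. Of the same epithelial list, CDH1, which encodes E-cadherin, was measured at 71.5 to 300 CPM and EPCAM at 236 to 336 CPM. Of 8 luminal breast markers, ESR1, PGR and FOXA1 stayed under 20 counts in each library, and the most abundant was XBP1 at 101 to 172 CPM, followed by ERBB2 at 46.7 to 72.2 CPM and GATA3 at 1.25 to 3.86 CPM. Of 11 intestinal markers, 7 passed the filter, led by VIL1 at 220 to 501 CPM, HNF4A at 65.4 to 194 CPM and TFF3 at 39.2 to 168 CPM, while CDX1, GPA33, KRT20 and CEACAM5 stayed under 20 counts. The summed level of the intestinal markers was 693, 687 and 424 CPM in control and 899, 914 and 720 CPM in knockdown, with 2 of the 7 genes lower and 1 higher in control at an unadjusted p under 0.05, against the same shares. Of 7 hepatic markers, 6 stayed under 20 counts, and SERPINA1 ranged from 26.3 to 74.2 CPM. Keratins, CDH1, EPCAM and some intestinal markers were thus abundant beside mesenchymal ones, so these levels do not settle the label MDA-MB231, and the part of these levels in the results on the SMAD genes was not tested.

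SMAD2, a receptor-regulated SMAD of the TGF-β branch on chr18:47808957-47931146, was measured at 32.5, 27.8 and 27.9 CPM in control repeats 1, 2 and 3 and at 29.9, 32.6 and 35.7 CPM in knockdown repeats 1, 2 and 3. Control repeat 1 lay within the knockdown range, so the groups overlapped. The log2 fold change of SMAD2 was -0.15, with a 95% interval from -0.50 to 0.19 and an adjusted p of 0.606. It was -0.12 without control repeat 3, and ran from -0.23 without control repeat 1 to -0.10 without knockdown repeat 3. The interval includes no difference and a difference of either direction, so these data do not show that its level stayed the same. In bulk libraries such as these, fewer cells of a type and less RNA per cell cannot be told apart.

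SMAD3 is the receptor-regulated SMAD of the same branch that binds DNA directly, and lies at chr15:67063763-67195173. Its level was 145, 113 and 83.4 CPM in control and 87.9, 79.4 and 116 CPM in knockdown. Control repeat 1 was the highest library and knockdown repeat 3 the next, so each group held a high and a low library and the groups overlapped. For SMAD3 the log2 fold change was 0.27 (95% interval -0.26 to 0.79), with an adjusted p of 0.549. The value depended on single libraries, at 0.06 without control repeat 1 and 0.44 without control repeat 3. The standard deviation over control repeats, 30.9 CPM around a mean of 114, was larger than the difference between the group means, since the knockdown mean was 94.5 CPM.

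SMAD1, a receptor-regulated SMAD of the BMP branch at chr4:145481194-145559176, was measured at 10.3, 11.8 and 14.5 CPM in control repeats 1, 2 and 3. Its level in knockdown repeats 1, 2 and 3 was 16.4, 16.4 and 20.1 CPM. Every knockdown library was above every control library, with control repeat 3 the closest to the knockdown. The group means were 12.2 ± 2.11 CPM in control and 17.6 ± 2.16 CPM in knockdown (SD, n = 3 each), a ratio of 1.45. The log2 fold change of SMAD1 was -0.53 (95% interval -1.0 to -0.06), with an unadjusted p of 0.0312 from edgeR's quasi-likelihood test and an adjusted p of 0.214, which is not a call. Without control repeat 3 the log2 fold change was -0.68 and the adjusted p 0.0639, the lowest among 117 alternative values of the members. The log2 fold change was -0.42 without control repeat 1 and -0.44 without knockdown repeat 3. Over the 13 alternatives for SMAD1 the adjusted p ran from 0.0639 to 0.526, and the unadjusted p was under 0.05 in 7. Of the exon bases of SMAD1, 5.3% lie opposite SMAD1-AS1 on the other strand, and the libraries were made by a strand-specific method.

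SMAD5, the other receptor-regulated SMAD of the BMP branch among the members, lies at chr5:136132845-136188747. Its level was 27.8, 27.5 and 26.6 CPM in control and 24.3, 26.3 and 32.9 CPM in knockdown. The control libraries lay close together and inside the knockdown range, with knockdown repeat 3 the highest library. For SMAD5 the log2 fold change was -0.03 (95% interval -0.41 to 0.35), with an adjusted p of 0.943. Its sign was not fixed, since it was 0.05 when libraries were scaled by their totals alone and 0.10 without knockdown repeat 3. Opposite strand exons of SMAD5-AS1 cover 6.75% of its exon bases.

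SMAD4, the common partner of both branches, was nearly undetected. Its counts, at chr18:51028528-51085045, were 14, 9 and 11 reads in control repeats 1, 2 and 3 and 9, 10 and 9 reads in knockdown repeats 1, 2 and 3. All 6 libraries were low, and the groups overlapped. The exact Poisson 95% intervals, which cover counting error only, ran from 7.65 to 23.5 reads for the highest library and from 4.12 to 17.1 for the lowest. Summed reads were 34 in control and 28 in knockdown, a ratio of 1.18 after scaling with an exact binomial 95% interval from 0.693 to 2.02, again for counting error only and computed after the counts were seen. In normalized units the level of SMAD4 was 0.864, 0.554 and 0.704 CPM in control and 0.571, 0.634 and 0.594 CPM in knockdown. The gene failed the filter on low counts and has no fold change here. The study shows Smad4 protein in MDA-MB-231 cells by Western blot, and no protein was measured in these libraries.

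Coding genes on either side of SMAD4, looked up after its counts were seen, were counted in the same libraries. ME2, a mitochondrial malic enzyme gene upstream of SMAD4, had 528 to 769 reads per library. MEX3C, an RNA-binding protein gene downstream of SMAD4, had 454 to 725 reads per library. These flanking genes were well covered, while ELAC1, the nearest upstream gene, had 8 to 23 reads, with 8.51% of its exon bases shared with a readthrough gene. MAPK4 and MRO had 0 reads in all 6 libraries. Exons of the same ELAC1-SMAD4 readthrough gene share 967 of the 19606 exon bases of SMAD4 on the same strand, or 4.93%, and that gene had 0 reads in each library. That sharing leaves 18639 exon bases that are annotated to SMAD4 alone on its strand. RPL17 and HDHD2, also picked after the counts were seen, were not chosen by a rule and give no background for SMAD4. RPL17 had 17 to 54 reads with 32.9% of its exon bases shared, and HDHD2 had 6 to 20 reads with 28.2% shared. The cause of the low SMAD4 counts was not tested.

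SMAD6, an inhibitory SMAD that acts mainly on the BMP branch, lies at chr15:66702236-66782849. Its level was 95.6, 96.3 and 142 CPM in control repeats 1, 2 and 3 and 94.2, 87.3 and 99.1 CPM in knockdown repeats 1, 2 and 3. Control repeat 3 was alone at the top, and the other 5 libraries lay between 87.3 and 99.1 CPM, where the groups overlapped. For SMAD6 the log2 fold change was 0.25 (95% interval -0.17 to 0.67), with an adjusted p of 0.488. Without control repeat 3 it was 0.03, so the difference between group means rested on that library. When control repeat 2 was rebuilt from its FPKM values, which resembled control repeat 3, it was 0.45 with an adjusted p of 0.235.

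SMAD7, an inhibitory SMAD that blocks both branches and brings SMURF2 to the receptors, lies at chr18:48919853-48950965. Its level was 18.2, 12.6 and 12 CPM in control and 12.6, 11.5 and 9.18 CPM in knockdown. Control repeat 1 was the highest library and knockdown repeat 3 the lowest, and the remaining 4 libraries overlapped between 11.5 and 12.6 CPM. SMAD7 had a log2 fold change of 0.36 (95% interval -0.19 to 0.91), with an adjusted p of 0.44. It was 0.15 without control repeat 1 and 0.46 without control repeat 3.

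SKI, a corepressor that binds SMAD complexes and recruits histone deacetylases, lies at chr1:2227388-2310213. In control repeats 1, 2 and 3 its level was 104, 94.9 and 84.0 CPM. In knockdown repeats 1, 2 and 3 the level of SKI was 131, 138 and 113 CPM. All 3 knockdown libraries were above all 3 control libraries. The group means were 94.4 ± 10.2 CPM in control and 127 ± 13.1 CPM in knockdown (SD, n = 3 each), a ratio of 1.35. The log2 fold change of SKI was -0.43 (95% interval -0.77 to -0.08), with an unadjusted p of 0.0208 from edgeR's quasi-likelihood test and an adjusted p of 0.187, which is not a call. It was -0.36 without control repeat 3, with an adjusted p of 0.16, in a range over the alternatives from 0.111 to 0.491.

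SKIL, also named SnoN, is the related corepressor whose protein is degraded when TGF-β signals and whose gene is a TGF-β target, and it lies at chr3:170357342-170396835. Its level was 38.8, 36.0 and 38.4 CPM in control and 38.7, 30.3 and 30.5 CPM in knockdown. Knockdown repeat 1 lay among the control libraries, and knockdown repeats 2 and 3 lay below them. SKIL had a log2 fold change of 0.18 (95% interval -0.17 to 0.54), with an adjusted p of 0.545. It was 0.17 without control repeat 3, 0.30 without knockdown repeat 1 and 0.12 without knockdown repeat 2 or 3.

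SMURF2, the ubiquitin ligase, lies at chr17:64542282-64662307. Its level was 72.4, 49.7 and 50.3 CPM in control repeats 1, 2 and 3 and 45.6, 40.9 and 45 CPM in knockdown repeats 1, 2 and 3. Every control library was above every knockdown library, with control repeat 1 far above the rest. SMURF2 had a log2 fold change of 0.39 (95% interval -0.02 to 0.80), with an adjusted p of 0.281. It was 0.19 without control repeat 1 and 0.47 without control repeat 3, and the ratio of the group means in all 6 libraries was 1.31. Of its exon bases, 2.5% lie opposite CEP95 on the other strand.

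**Figure D1:**
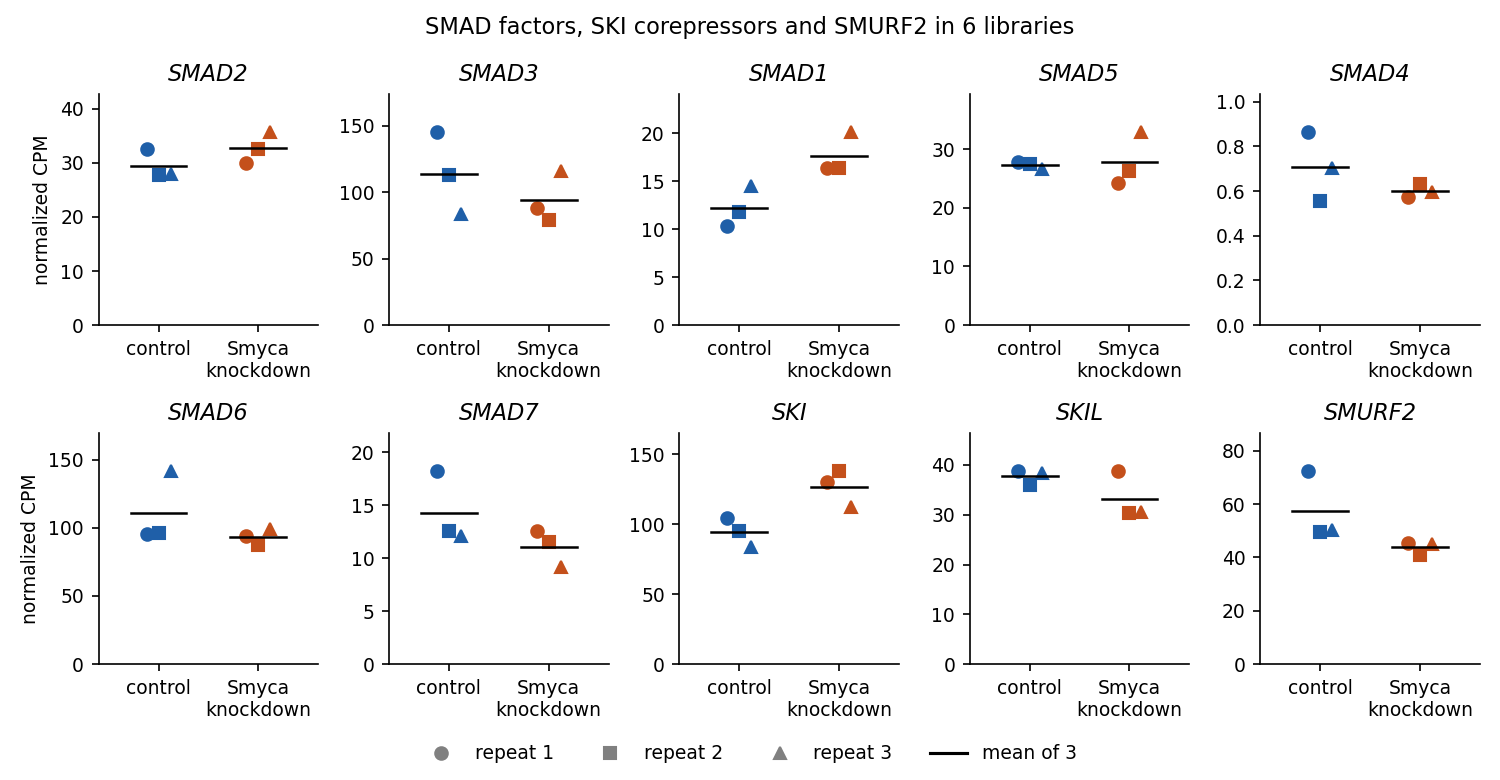
Normalized CPM (vertical axis, from 0, own scale for each gene) of the 10 genes in 3 control libraries (blue) and 3 Smyca knockdown libraries (orange), with the symbol giving the repeat and a line at the mean of 3. SMAD1 and SKI sit higher in all 3 knockdown libraries, SMURF2 sits lower in them, and SMAD4 stays under 1 CPM.

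A gene was called when the ratio of control to knockdown was at least 1.5 or at most 0.66 and the adjusted p was under 0.05. By edgeR's quasi-likelihood test 0 of the 9 tested members were called, against 0.0265% of all genes tested, and by DESeq2 0 were called, against 5.64%. At an unadjusted p under 0.05 there were 2 members, SMAD1 and SKI, both lower in control, against 8.74% of all genes tested, and 0 higher in control, against 10.4%, or 19.2% in either direction. The groups did not overlap with a lower level in control for 2 members, against 12.5% of all genes tested, and with a higher level in control for 1, SMURF2, against 12.4%. Counts of 0 to 2 among 9 genes are too few to read against these shares, and are no result about the members as a group. With control repeat 2 rebuilt from its FPKM values, 0 members were called, against 0.0658% of the 15190 genes tested, and 3 had an unadjusted p under 0.05 in edgeR, SKI, SMURF2 and SMAD6, against 20.4%, while SMAD1 had a log2 fold change of -0.44 and SMAD3 one of 0.16. In that fit control repeats 2 and 3 were nearly alike, with a chi-square per degree of freedom of 2.62 between them against 18.6 to 106 between repeats of a group by their counts. A high SMAD6 level thus enters in 2 of its 3 control libraries, and control repeat 2 had 2564 SMAD6 reads behind FPKM against 1565 counted. Whether both columns came from the same library was not tested. Without control repeat 3, the members called stayed at 0, while 10.5% of all genes tested were then called. Of the 9 fold changes, 5 were positive and 4 negative, and 7 of the 9 intervals contained 0. The ratios between the groups ran from 1.02 to 1.45 in either direction, all below the 1.5 of a call. The median log2 fold change of the members was 0.18, and that of all genes tested was 0.04. Leaving out control repeat 3 gave medians of 0.03 and 0.01.

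**Figure D2:**
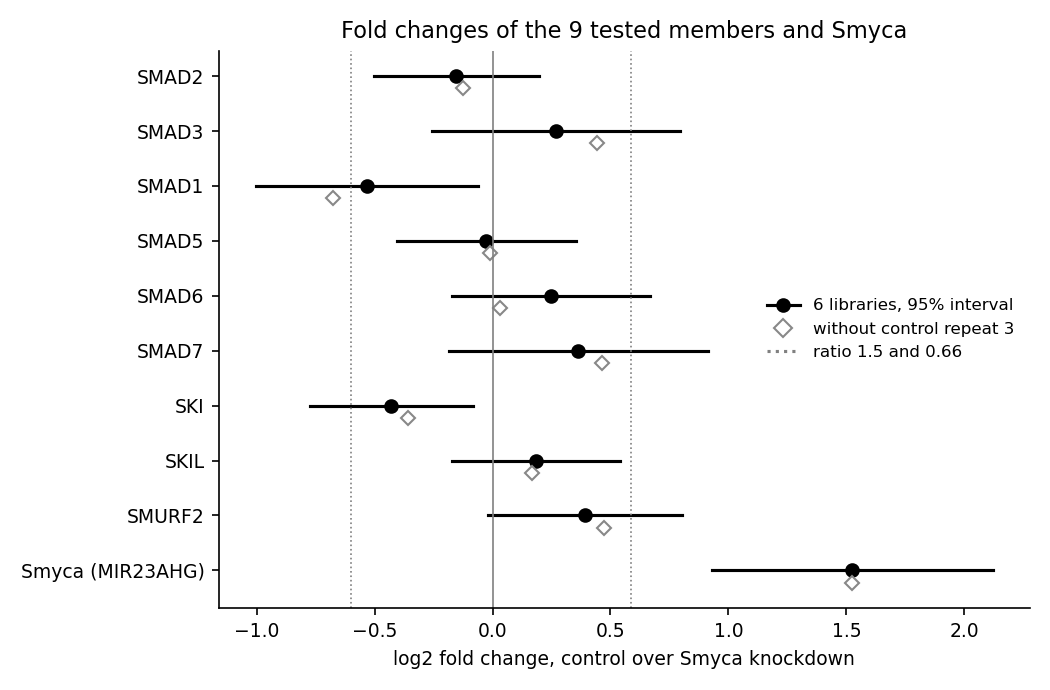
Log2 fold change of control over Smyca knockdown (horizontal axis) of the 9 tested members and Smyca, with the 95% interval from 6 libraries as a line, the value without control repeat 3 as an open diamond, and dotted lines at ratios of 1.5 and 0.66. The interval of Smyca runs from 0.93 to 2.12, while those of SMAD1 and SKI alone among the members lie wholly below 0.

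Levels of different genes were compared as normalized CPM per kilobase, with the length behind the deposited FPKM. The mean level over 6 libraries was highest for SMAD3 at 84.1, followed by SKI at 66.1 and SMAD6 at 44. SMAD3 was above SKI in 4 of 6 libraries, and their ranges overlapped in the knockdown and not in the control. SKI and SMAD6 had ranges that overlapped in the control and not in the knockdown. SMURF2 came next at 23.4 CPM per kilobase, below SMAD6 and above SKIL in all 6 libraries. SKIL at 18.3, SMAD5 at 16.4 and SMAD1 at 15.3 CPM per kilobase formed a close group whose ranges overlapped between neighbours in the knockdown and not in the control. SMAD1 ranked 7 of 10 in control and 5 in knockdown. SMAD7 followed at 10.3 CPM per kilobase, with a range that overlapped that of SMAD1 in the control and not in the knockdown, and SMAD2 at 5.69 lay below it in all 6 libraries. SMAD4 was lowest at 0.332 CPM per kilobase, with 0.439 in its highest library against 5.09 in the lowest library of SMAD2. With the length of the Ensembl canonical transcript, chosen after the data were seen, 5 ranks differed, and SMAD6 at 26.7 CPM per kilobase led SKI at 18.2 and SMAD3 at 16.1, while SMAD2 and SMAD4 remained the lowest.

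Ratios of 2 members within a library do not depend on how libraries are scaled, and 5 were compared by role. With 3 libraries against 3, the two-sided exact permutation test cannot go below p = 0.1. The log2 ratio of SKIL to SKI, the corepressors, in reads per kilobase was -1.64, -1.61 and -1.34 in control and -1.96, -2.39 and -2.09 in knockdown. SKIL was thus lower relative to SKI in all 3 knockdown libraries, by a difference of 0.62 (exact permutation p = 0.1, adjusted over 5 ratios 0.25). The log2 ratio of SMAD1 to SMAD5, the BMP branch SMADs, was -0.66, -0.44 and -0.10 in control and 0.21, 0.10 and 0.07 in knockdown. SMAD5 was the more abundant per kilobase in every control library and SMAD1 in every knockdown library, a difference of -0.53 (exact permutation p = 0.1, adjusted 0.25). The order of these 2 genes depends on the length used for each, while the difference between groups does not.

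The log2 ratio of SMAD3 to SMAD2, the TGF-β branch SMADs, was 4.30, 4.16 and 3.72 in control and 3.70, 3.43 and 3.84 in knockdown. These groups overlapped through control repeat 3 and knockdown repeat 3, and the difference was 0.41 (exact permutation p = 0.2, adjusted 0.333). The log2 ratio of SMAD7 to SMAD3, inhibitor to activator, was -2.98, -3.15 and -2.78 in control and -2.79, -2.77 and -3.65 in knockdown, with knockdown repeat 3 alone at the low end (exact permutation p = 0.9, adjusted 1). The log2 ratio of SMURF2 to SMAD7, the ligase to its adaptor, was 1.17, 1.16 and 1.24 in control and 1.04, 1.01 and 1.47 in knockdown. Both groups centred on nearly the same value, 1.19 in control and 1.17 in knockdown (exact permutation p = 1, adjusted 1).

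**Figure D3:**
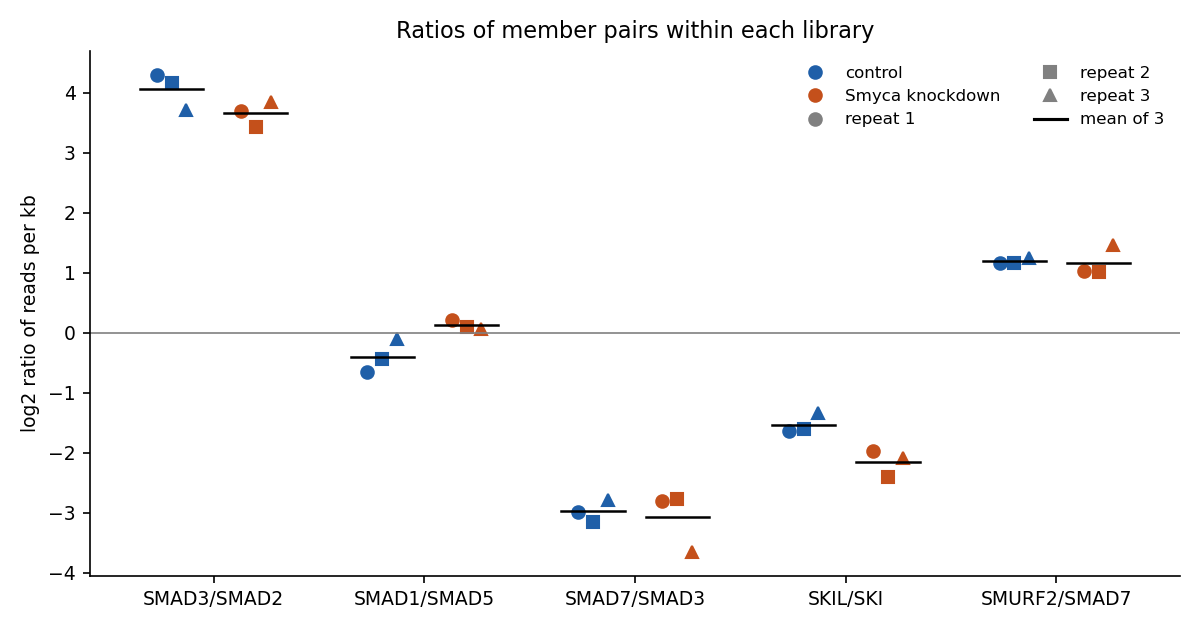
Log2 ratio of reads per kilobase (vertical axis) for 5 pairs of members (horizontal axis) in each library, with control in blue, Smyca knockdown in orange, symbols for the repeat and a line at the mean of 3. The groups are apart for SMAD1/SMAD5 and SKIL/SKI, with mean differences of -0.53 and 0.62, and overlap for the other 3 pairs.

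Patterns over the 6 libraries were compared by Pearson's r of log2 CPM, as a description in which differences between groups and between repeats both enter. Among the members, SMAD7 and SMURF2 were most alike, with r = 0.853, and SMAD1 and SMAD7 most opposed, with r = -0.89. SMAD1 also ran opposite to SMURF2 (r = -0.811), and SMAD6 opposite to SKI (r = -0.785). Among 96 genes of the members and the pathway lists, the gene most like SMAD3 was SMURF1, a related ubiquitin ligase gene, with r = 0.981. SMURF1 was measured at 66.2, 56.8 and 47.9 CPM in control and 46.3, 45.9 and 60.3 CPM in knockdown, and so shared the high control repeat 1 and high knockdown repeat 3 of SMAD3. TGFBR3, a TGF-β coreceptor gene, was next, with r = 0.972. SMAD7 was most like TGFB1, a TGF-β ligand gene, with r = 0.957, and next like SNAI2, a transcription factor gene of the epithelial-mesenchymal transition, with r = 0.924. TGFB1 was highest in control repeat 1 at 346 CPM and lowest in knockdown repeat 3 at 245 CPM, the same libraries in which SMAD7 was highest and lowest. SKIL was most like JUNB and RUNX2, with lower values of r, 0.782 and 0.773.

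SMAD3 and SMAD4 bind short elements in DNA, so the promoters of the members, from 250 bases before to 50 after a start in the RefSeq table for GRCh38.p14, were searched on both strands. The table held 20 entries for 9 of the 10 members, and SKI had none. The paired SMAD box GTCTAGAC, a palindrome, was in 0.202% of 35116 promoters and, among the members, in that of SMAD6. The single box CAGAC, read on the other strand as GTCTG and not part of the paired box, was in 45.3% of promoters and in 8 of the 20 member entries, from SKIL, SMAD1, SMAD3, SMAD7 and SMURF2, for SMAD1 only in an entry that is not the nearest to its canonical start. The GC element GGCGCC, a palindrome, was in 19.2% of promoters and in 8 of the 20 member entries, from SKIL and SMAD1 to SMAD5. For SMAD1 this element was likewise only in entries that are not the nearest to its canonical start. Within 1000 bases of the start of 20033 coding genes, GTCTAGAC was present for 211, or 1.05%, and for SMAD6 alone among the members, at chr15:66702224-66702231. The study describes this box in its SMAD7 reporter, whose stated range would lie within 1000 bases if counted from the GENCODE start, but the start it counts from is not given. The window was therefore widened after the first search to 2000 bases, where 2.21% of coding genes held it. SMAD7 then had a copy at chr18:48952218-48952225, which begins 1260 bases before its GENCODE start and so lies outside the narrower windows, and whether it is the box of the reporter was not tested. The promoter of SMAD6 is shown for its paired box, and those of SMAD7 and SMURF2 because their levels were the most alike among the members. They cover chr15:66701986-66702285 on the plus strand, chr18:48950916-48951215 on the minus strand and chr17:64662258-64662557 on the minus strand, with the entry nearest the canonical start taken for SMAD7, and capitals mark the boxes.
SMAD6: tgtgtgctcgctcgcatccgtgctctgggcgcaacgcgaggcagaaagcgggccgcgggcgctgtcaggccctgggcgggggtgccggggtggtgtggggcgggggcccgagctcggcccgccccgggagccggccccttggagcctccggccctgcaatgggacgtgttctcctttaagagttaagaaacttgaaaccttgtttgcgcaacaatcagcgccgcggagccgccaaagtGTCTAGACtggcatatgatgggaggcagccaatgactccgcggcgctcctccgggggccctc
SMAD7: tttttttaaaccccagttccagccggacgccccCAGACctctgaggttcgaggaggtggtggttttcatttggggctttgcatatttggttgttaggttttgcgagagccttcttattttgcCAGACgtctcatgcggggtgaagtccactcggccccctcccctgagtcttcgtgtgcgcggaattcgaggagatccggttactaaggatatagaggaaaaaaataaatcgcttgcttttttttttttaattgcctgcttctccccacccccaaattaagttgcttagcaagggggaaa
SMURF2: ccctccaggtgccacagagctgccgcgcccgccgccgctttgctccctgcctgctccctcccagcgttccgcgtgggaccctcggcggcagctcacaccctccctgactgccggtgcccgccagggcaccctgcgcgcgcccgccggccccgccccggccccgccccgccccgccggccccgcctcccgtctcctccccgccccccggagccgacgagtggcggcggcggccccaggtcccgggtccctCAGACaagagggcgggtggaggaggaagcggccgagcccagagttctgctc
SMAD6 carries 1 paired box and no single box in this window, SMAD7 carries 2 single boxes and SMURF2 carries 1. A match is a description of the letters, and no binding was measured here.

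The other genes of the pathway were read from 6 lists of 95 genes, of which 88 were tested. By edgeR 1 of the 88 was called and 38 had an unadjusted p under 0.05, while DESeq2 called 21 and edgeR without control repeat 3 called 25. Over all genes tested the shares were 0.0265% called, 19.2% at an unadjusted p under 0.05 (10.4% higher and 8.74% lower in control), 5.64% called by DESeq2 and 10.5% called without control repeat 3, and each list is to be read beside them. Upstream of the SMADs, 0 of 19 tested ligand and receptor genes, a list that also holds SMAD9, were called by edgeR, with 3 higher and 5 lower in control at an unadjusted p under 0.05 and a median log2 fold change of -0.11 (DESeq2 called 2, and TGFB2, INHBA and BMP2 were not tested). INHBB, an activin subunit gene, had a log2 fold change of -0.80 (adjusted p 0.111), ENG, a coreceptor gene, 1.2 (adjusted p 0.129), and BMP7, a ligand gene, -0.52 (adjusted p 0.131). Without control repeat 3, 4 genes of this list were called, INHBB, BMP4 and TGFBR1 lower in control and ENG higher. The median of the list was then -0.20.

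Among genes for anchors, phosphatases and nuclear transport of SMADs, 0 of 11 tested were called by edgeR and 1 by DESeq2, with 0 higher and 3 lower in control at an unadjusted p under 0.05 and a median of -0.10 (LDLRAD4 was not tested). Those 3 were TGFBRAP1, which encodes a receptor-associated protein (-0.69), XPO4, which encodes an exporter of SMAD3 (-0.50), and RANBP3, which encodes a nuclear export factor of SMAD2 and SMAD3 (-0.43). PMEPA1 was called higher and TGFBRAP1 lower in control when control repeat 3 was left out. Among the 13 ubiquitin ligase and deubiquitinase genes that act beside SMURF2, 0 were called by edgeR or DESeq2, with 0 higher and 3 lower in control at an unadjusted p under 0.05 and a median of -0.23. With control repeat 3 left out, the median of this list was -0.13. UCHL5, a deubiquitinase gene, had a log2 fold change of -0.58, WWP2, a ligase gene of the same family as SMURF2, -0.45, and USP11, a deubiquitinase gene, -0.44. Their adjusted p values were 0.128, 0.147 and 0.193. Among nuclear cofactors of the SMADs, 0 of 18 tested were called by edgeR and 3 by DESeq2, with 3 higher and 4 lower in control at an unadjusted p under 0.05 and a median of 0.00 (FOXH1 and ZEB2 were not tested). CREBBP, a coactivator gene, had a log2 fold change of -0.75, RUNX2, a SMAD partner gene, 1.31, and ATF3, a repressor partner gene, 1.49, with adjusted p values of 0.111, 0.114 and 0.14. With control repeat 3 left out, CREBBP and MECOM were called lower and RUNX2 and MED15 higher in control.

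Downstream, the list of target genes of SMAD2 and SMAD3 was drawn up with earlier results of these data known, so its counts are no independent evidence of a direction. Of 20 tested, 1 was called, and 15 were higher and 0 lower in control at an unadjusted p under 0.05, against 10.4% and 8.74% of all genes tested. The median log2 fold change was 1.23, against 0.04 over all genes tested, and DESeq2 called 13, against 5.64%. Without control repeat 3, 14 were called, against 10.5%, and the median was 1.32. JUN, the gene called, was measured at 697, 561 and 930 CPM in control and 197, 196 and 190 CPM in knockdown. It was lower in every knockdown library, with a log2 fold change of 1.91 ± 0.20 (SE) and an adjusted p of 0.0312. The call was lost without control repeat 1 (adjusted p 0.0726), knockdown repeat 1 (0.189), knockdown repeat 2 (0.344) or knockdown repeat 3 (0.0759), and kept without control repeat 2 (0.0436) or control repeat 3 (0.00154). The log2 fold change of JUN was 1.88 to 1.94 in the fits that lost the call and 1.69 to 2.06 with any library left out. JUNB had a log2 fold change of 1.24 and an adjusted p of 0.111. Among target genes of the BMP branch, 0 of 7 tested were called by edgeR and 2 by DESeq2, with 2 higher and 0 lower in control at an unadjusted p under 0.05 and a median of 0.31 (ID4 was not tested). That median was 0.13 without control repeat 3. HEY1 had a log2 fold change of 1.38 (adjusted p 0.122), ID1 0.69 (adjusted p 0.14) and MSX1 0.31 (adjusted p 0.431), and HEY1 was called without control repeat 3. The log2 fold change of MSX1 depended on single libraries, at 0.13 without control repeat 3 and 0.47 without control repeat 1.

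**Figure D4:**
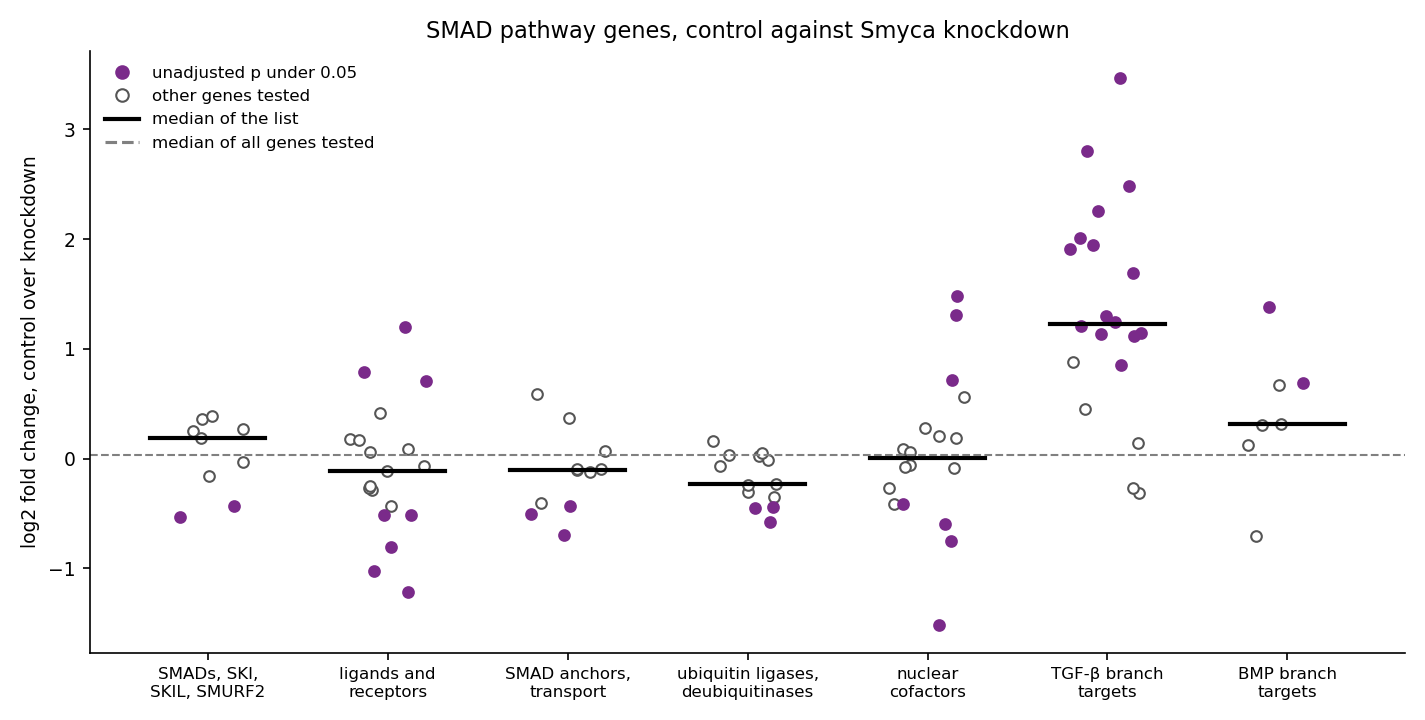
Log2 fold change of control over Smyca knockdown (vertical axis) of each tested gene of the members and 6 pathway lists (horizontal axis), filled where the unadjusted p was under 0.05, with a line at each list's median and a dashed line at the median of all genes tested. The members lie near the dashed line with a median of 0.18. The median of the SMAD2 and SMAD3 targets is 1.23, for a list drawn up with earlier results of these data known.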

How the data were processed

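The authors deposited, for each of the 6 libraries, a table of read counts per gene (HTSeq counts of reads aligned to hg38 with TopHat 2.0.12, per the submitters' notes) and FPKM values for the same genes. The deposited counts were used, and the deposited FPKM column gave gene lengths and 1 alternative. In edgeR 4.0.16 (R 4.3.3), genes were filtered with filterByExpr, scaled by TMM and tested by the quasi-likelihood test, 3 control against 3 knockdown libraries, with Benjamini-Hochberg adjustment over all 15075 genes tested. A call needed an adjusted p under 0.05 and a ratio no smaller than 1.5 or no larger than 0.66, as in the study. The biological coefficient of variation was 25.2%. P values measure the spread between libraries, and 95% intervals come from the same fit. The study's DESeq was not used.

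Members and lists were chosen with earlier results of these data known. Named were all 10 members, Smyca, genes among the 3 tested with the smallest p of each pathway list, the 3 most abundant genes of each marker list with others near 0, and the 2 genes most like SMAD3, SMAD7 and SKIL. CDH1 and EPCAM were named in addition. In pathway lists other than the targets of SMAD2 and SMAD3, genes called without control repeat 3 were also named. Positions and exons came from GENCODE 44. Alternatives were other size factors, library totals, looser and stricter filters, DESeq2 1.42.0, a replicate block, each library left out and the reads behind FPKM of control repeat 2. Canonical lengths, list counts without control repeat 3, the surroundings and summed reads of SMAD4 and a wider promoter window were added after the data were seen. The labels name Trizol for RNA extraction and the study's methods a column kit. The pipeline was tested on simulated data.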

Additional observations from a re-analysis of the deposited data

Results flagged for a closer look

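In control repeat 2, 784 genes had a count of 0 but 3 or more reads behind the deposited FPKM column, which the main comparison does not use and which enters 1 alternative. In the other 5 libraries no gene did, so the signal stands in a column that does not follow the counts of its own library. The cause was not tested.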

How the results depend on the processing

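All 117 alternative fold changes of the 9 tested members stayed uncalled, and 115 kept their direction. The exceptions were both SMAD5, at 0.05 with library totals and 0.10 without knockdown repeat 3, against -0.03 (-0.12 to 0.10 with a library left out), and the cause was not tested. Members called stayed at 0 under every alternative, and members at an unadjusted p under 0.05 numbered 0 to 3 with a library left out, against 2. Pathway genes called, 1 of 88, were 21 with no filter and with DESeq2, and 0 to 25 with a library left out, and at an unadjusted p under 0.05 they numbered 31 to 44, against 38. All genes called, 4, became 8 with library totals, 916 with no filter, 850 with DESeq2, 10 with the reads behind FPKM, and 0 to 1628 with a library left out. With canonical lengths 5 ranks of the order differed. With a library left out, the difference in log2 ratio ran from 0.28 to 0.58 for SMAD3/SMAD2, -0.67 to -0.40 for SMAD1/SMAD5, -0.19 to 0.25 for SMAD7/SMAD3, 0.50 to 0.72 for SKIL/SKI and -0.06 to 0.17 for SMURF2/SMAD7. With the reads behind FPKM these differences were 0.30, -0.42, 0.28, 0.68 and -0.02, so that SMURF2/SMAD7 changed sign.

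With repeat numbers as a block, 0 pathway genes and 0 of all genes were called, and the adjusted p of JUN was 0.131. Deviations from group means correlated at 0.0536, 0.0938 and 0.0207 between libraries with the same number, and at -0.142 to 0.0552 between the others. With 3 libraries a group, whether the numbers pair the libraries cannot be told from these values. SMAD4, at 9 to 14 reads, did not pass the filter of the main comparison. Each group had 3 libraries, and no protein or phosphorylation was measured.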
